A study of Mus musculus with 8 samples.

Results

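The signalling axis of interleukin-23 (IL-23) and interleukin-17 (IL-17) was followed in mouse dorsal skin through 9 genes: the cytokine genes Il17a, Il17f, Il17c, Il23a and Il12b, and the receptor genes Il23r, Il17ra, Il17rc and Il17re. The members were chosen by symbol, as probe sets to which the platform annotation gave only that symbol. Each gene was matched by 1 probe set, so that 9 of 41345 probe sets, or 9 of 22180 named genes, are described. The study profiled 8 expression arrays of skin from male mice, to ask how psoriasis-like inflammation depends on the IL-22 receptor and on alloferon, an insect-derived peptide. Imiquimod (IMQ), an agonist of a Toll-like receptor, was the inducer: 83.3 mg of a 5% cream was spread daily on back and ears from day 1 to day 7, with a vehicle or alloferon cream 6 hours after it.

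The 8 arrays carried 1 label each. KO_IMQ_Allo and KO_Allo came from knockout mice given alloferon with and without IMQ. KO_IMQ, KO_CTRL, KO_IMQ_B and KO_CTRL-B came from knockout mice with no alloferon in the label. The 6 KO arrays came from the strain B6.Cg-Il22ra1tm1.1Koll/J, and WT_IMQ and WT_CTRL from C57BL/6 mice. The strain name gives a targeted Il22ra1 allele; the sources used here do not say whether it is conditional or which cells lost the receptor, nor do they give the animals' age, the meaning of the letter B, or which arrays without alloferon received vehicle cream. The study states 4 mice per group, without saying whether RNA of several mice was put on 1 array. Each IMQ array was set against the array of otherwise equal label, which gave 4 pairs, called the arms KO Allo, KO plain, KO B and WT plain. Values are log2 expression levels after robust multi-array averaging (RMA), so that a difference of 1 log2 unit is 2-fold.

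IL-23 is a dimer of the subunits encoded by Il23a and Il12b, the second of which it shares with IL-12, and is made mainly by dendritic cells and macrophages. It acts through the receptor chains encoded by Il23r and Il12rb1 on T cells and innate lymphoid cells, where it signals through JAK2, TYK2 and STAT3 and sustains the production of IL-17A and IL-17F. Those cytokines bind a receptor of IL-17RA and IL-17RC on keratinocytes and induce antimicrobial peptides and chemokines, whereas IL-17C, made by epithelial cells, uses IL-17RA with IL-17RE. In the imiquimod model, gamma delta T cells of the dermis are a known source of IL-17A.

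The arrays read as skin: the mean level of 11 keratinocyte genes lay between 10.50 and 10.97 on every array, above the upper quartile of all genes (7.45). Il22ra1, the targeted gene, read 8.59 to 9.40 on the KO arrays, against 8.64 on WT_IMQ and 8.23 on WT_CTRL, so the arrays do not check the genotype, and directions between KO and WT rest on the labels. KO_Allo stood apart from the other arrays without IMQ on the first principal component (46.8% of the variance), at -7.03 against -42.5 to -28.6. Skin content differed too: the mean level of 15 skeletal muscle genes read 11.17 on KO_CTRL and 10.93 on WT_CTRL and 8.33 to 9.25 elsewhere, and that of 20 hair follicle genes read 7.39 on KO_CTRL where the remaining arrays without IMQ had 8.96 to 10.04.

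Over the 4 pairs, IMQ raised the receptor gene Il23r and left the other 8 genes short of the test. Il23r, which encodes the chain that makes a cell responsive to IL-23, rose by 1.34 ± 0.21 log2 units (SE over 4 pairs, limma), or 2.53-fold. Il17f and Il17a, the cytokines downstream of it, were higher in 3 of 4 pairs each. Il17ra and Il17rc, the receptor chains through which those cytokines act, were higher in 4 of 4 pairs by smaller steps, and Il17re was higher in 1. In all, 4 of 9 members were higher in 4 of 4 pairs, where 12.6% of genes were, and 8 of 9 in 3 or 4 pairs, where 35.4% were. By limma with Benjamini-Hochberg adjustment over all genes, 1 of 9 members rose and 0 fell, where 1.9% of all genes rose, 1.19% fell and 3.09% thus passed. At an unadjusted p under 0.05 the count was 5 of 9, against 18.8% of all genes. The median difference of the members was 0.42 log2 units, against -0.01 over all genes, and 8 of 9 lay above 0, against 48.3% of genes. All 4 IMQ arrays lay above all 4 others for 3 members (Il23r, Il23a and Il17rc), where 5.96% of genes did. The call for Il23r was lost without the WT plain pair (1.42 log2 units, adjusted p = 0.133 in limma) and without the KO B pair (adjusted p = 0.133). Of all genes, 0 and 2 passed there, against 685 over the 4 pairs. Without the KO Allo pair, whose KO_Allo array stood apart, Il23r measured 1.47 (adjusted p = 0.0211), and 1307 genes passed. The call was also lost when every probe set was tested (adjusted p = 0.0850 in limma). Taking the median level of the muscle or hair follicle genes as a covariate lost it too, with Il23r at 0.63 and 2.72 log2 units. Under each of these settings 0 of all genes or probe sets passed, so the loss is not particular to Il23r.

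**Figure D1:**
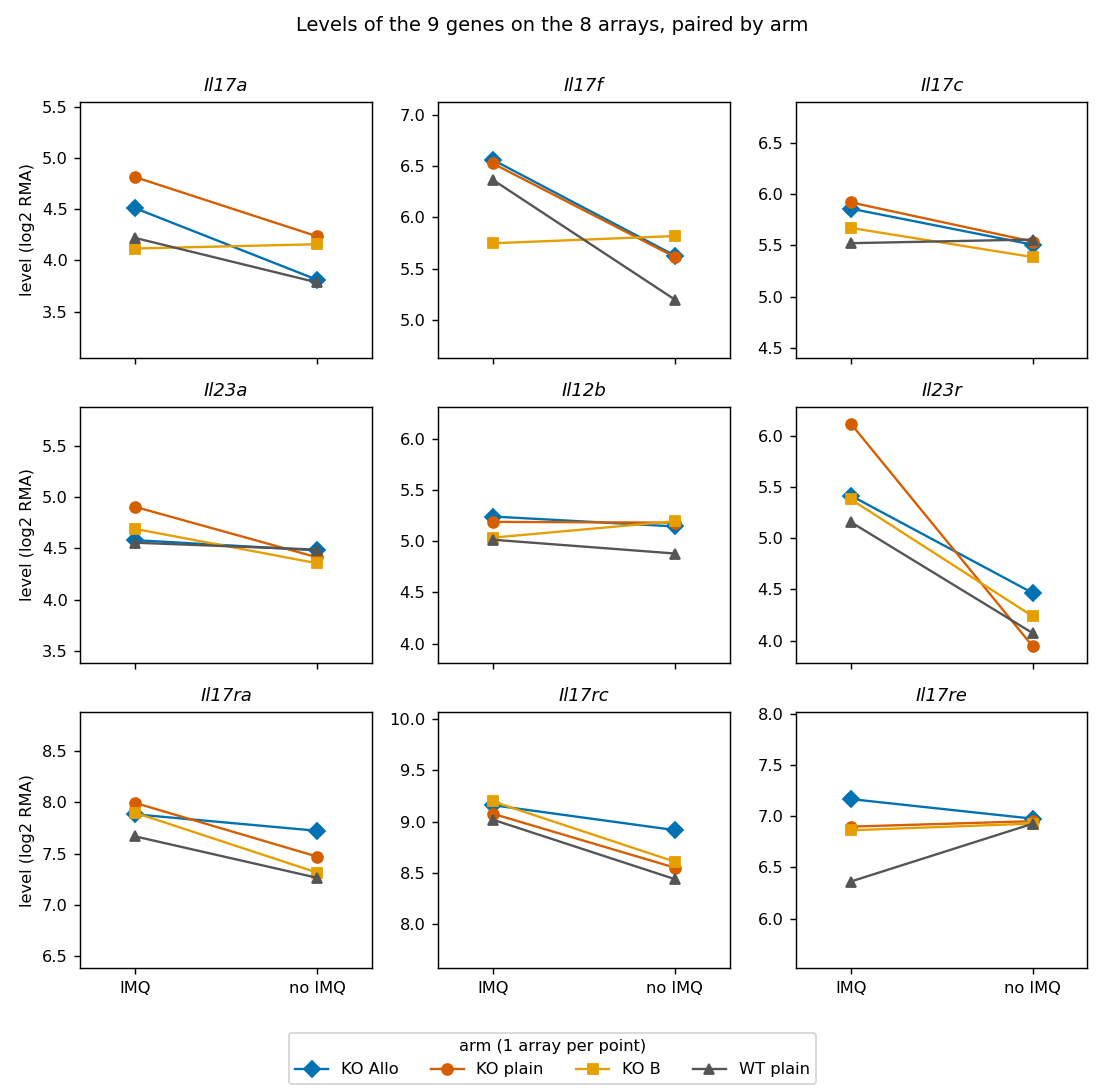
Levels (log2 RMA, y axis) of the 9 genes on each array with and without IMQ (x axis), with 1 line per arm and 1 array per point. Each panel spans the same range of log2 units. The Il23r lines run the same way in all 4 arms, those of Il17a and Il17f slope the same way in every arm but KO B, and those of Il12b are nearly flat.

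Il23r is first in the order of response. Its level was 5.41 on KO_IMQ_Allo, 6.12 on KO_IMQ, 5.38 on KO_IMQ_B and 5.16 on WT_IMQ, against 4.46 on KO_Allo, 3.94 on KO_CTRL, 4.24 on KO_CTRL-B and 4.07 on WT_CTRL. The groups did not overlap. The 4 pairs differed by 0.95 (KO Allo), 2.17 (KO plain), 1.14 (KO B) and 1.08 (WT plain) log2 units. The KO plain pair thus held the highest and the lowest array, and without it the difference was 1.06 ± 0.11 (adjusted p = 0.0247 in limma). Of all genes, 260 passed without that pair. The adjusted p over the 4 pairs was 0.0294, and 99.3% of genes had a lower difference. In bulk skin, more cells that carry the receptor and more Il23r RNA per cell cannot be told apart.

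Il12rb1, the receptor chain that pairs with Il23r in the IL-23 receptor, did not pass the test. Its difference was 0.19 ± 0.14 log2 units (adjusted p = 0.518 in limma). The pairs differed by 0.37 (KO Allo), 0.52 (KO plain), -0.25 (KO B) and 0.14 (WT plain). Il12rb2, which serves the IL-12 receptor and not that of IL-23, measured -1.01 ± 0.25 (adjusted p = 0.0867 in limma). Its level was 5.79 on KO_IMQ_Allo, 5.39 on KO_IMQ, 5.53 on KO_IMQ_B and 5.44 on WT_IMQ, against 5.81 on KO_Allo, 6.62 on KO_CTRL, 6.62 on KO_CTRL-B and 7.13 on WT_CTRL. All 4 IMQ arrays lay below the 4 others, as for 5.04% of genes, but the KO Allo pair differed by -0.02 log2 units where the other 3 differed by -1.69 to -1.08.

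The subunits of IL-23 itself gave no call. Il23a, which encodes the subunit specific to IL-23, read 4.58 on KO_IMQ_Allo, 4.90 on KO_IMQ, 4.69 on KO_IMQ_B and 4.55 on WT_IMQ, against 4.48 on KO_Allo, 4.41 on KO_CTRL, 4.35 on KO_CTRL-B and 4.49 on WT_CTRL. The IMQ arrays all lay above the others, although WT_IMQ and the highest array without IMQ were 0.07 log2 units apart. The difference was 0.25 ± 0.11 log2 units (adjusted p = 0.278 in limma), with 0.49 in the KO plain pair and 0.34 in the KO B pair, against 0.10 in KO Allo and 0.07 in WT plain. Il12b, the shared subunit, read 5.24, 5.19, 5.03 and 5.01 on KO_IMQ_Allo, KO_IMQ, KO_IMQ_B and WT_IMQ, against 5.14, 5.18, 5.19 and 4.88 on KO_Allo, KO_CTRL, KO_CTRL-B and WT_CTRL. These ranges overlapped almost wholly, and the difference was 0.02 ± 0.09 (95% interval -0.21 to 0.25, adjusted p = 0.942 in limma). In the same family, Ebi3, a subunit of IL-27, measured 0.54 ± 0.12 (adjusted p = 0.0712), Il12a, the subunit specific to IL-12, 0.19 ± 0.11, and Il27 0.10 ± 0.09. Of these 5 subunit genes 0 passed in limma, with a median of 0.19 log2 units.

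Il17a and Il17f lie next to each other on chromosome 1, with 0 annotated genes between them, and were higher with IMQ in the same 3 arms. Il17f, a cytokine of mucosal and skin defence, read 6.56 on KO_IMQ_Allo, 6.52 on KO_IMQ, 5.75 on KO_IMQ_B and 6.36 on WT_IMQ, against 5.63 on KO_Allo, 5.61 on KO_CTRL, 5.82 on KO_CTRL-B and 5.20 on WT_CTRL. KO_IMQ_B alone of the IMQ arrays lay within the range of those without IMQ, which the other 3 exceeded. The pairs differed by 0.93 (KO Allo), 0.91 (KO plain), -0.07 (KO B) and 1.17 (WT plain) log2 units, with a mean of 0.74 ± 0.20 (adjusted p = 0.111 in limma). Il17a read 4.51 on KO_IMQ_Allo, 4.81 on KO_IMQ, 4.11 on KO_IMQ_B and 4.22 on WT_IMQ, against 3.81 on KO_Allo, 4.23 on KO_CTRL, 4.16 on KO_CTRL-B and 3.78 on WT_CTRL. Here 2 of the 4 IMQ arrays, KO_IMQ and KO_IMQ_Allo, lay above every array without IMQ. The pairs differed by 0.70, 0.58, -0.04 and 0.43 log2 units in the same order of arms, with a mean of 0.42 ± 0.14 (adjusted p = 0.169 in limma). Without the KO B pair the mean of Il17f was 1.00 ± 0.12 (adjusted p = 0.0798) and that of Il17a 0.57, and neither passed the test. Across the 8 arrays, which share IMQ status and skin content, the levels of the 2 genes had a Pearson r of 0.85.

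The remaining cytokines of the family gave no call. Il17c, the epithelial member, read 5.86 on KO_IMQ_Allo, 5.92 on KO_IMQ, 5.67 on KO_IMQ_B and 5.52 on WT_IMQ, against 5.51 on KO_Allo, 5.54 on KO_CTRL, 5.39 on KO_CTRL-B and 5.56 on WT_CTRL. Its 3 KO pairs differed by 0.28 to 0.38 log2 units and the WT plain pair by -0.04, for a mean of 0.25 ± 0.11 (adjusted p = 0.275 in limma). Il17b measured 0.26 ± 0.16, Il25, a cytokine of type 2 responses, 0.09 ± 0.10, and Il17d -0.05 ± 0.09. Of these 6 IL-17 cytokine genes 0 passed, and their median was 0.25 log2 units.

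The stretch before the transcription start is shown for the neighbours Il17a and Il17f, whose levels correlated, and for Il23r, the member that rose. Each run is 250 bases long, ends at the last base before the start and is written on the gene's strand, from RefSeq on GRCm38.p6. Il17a lies on the plus strand (chr1:20730655-20730904), Il17f on the minus strand (chr1:20784271-20784520) and Il23r on the minus strand (chr6:67491856-67492105). Capitals mark matches to the TATA box TATAAA, searched on the gene's strand, and to AGGTCA, a core element of nuclear receptors, searched on both strands and so also written TGACCT.
Il17a: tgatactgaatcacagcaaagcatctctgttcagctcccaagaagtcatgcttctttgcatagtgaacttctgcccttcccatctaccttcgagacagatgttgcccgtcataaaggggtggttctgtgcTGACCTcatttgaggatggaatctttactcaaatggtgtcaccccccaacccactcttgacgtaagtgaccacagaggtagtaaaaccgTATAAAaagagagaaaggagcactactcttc
Il17f: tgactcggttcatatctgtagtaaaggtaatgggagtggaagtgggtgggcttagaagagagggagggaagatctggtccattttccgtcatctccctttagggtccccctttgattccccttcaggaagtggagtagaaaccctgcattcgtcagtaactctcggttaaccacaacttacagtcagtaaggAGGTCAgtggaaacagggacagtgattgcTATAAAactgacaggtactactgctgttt
Il23r: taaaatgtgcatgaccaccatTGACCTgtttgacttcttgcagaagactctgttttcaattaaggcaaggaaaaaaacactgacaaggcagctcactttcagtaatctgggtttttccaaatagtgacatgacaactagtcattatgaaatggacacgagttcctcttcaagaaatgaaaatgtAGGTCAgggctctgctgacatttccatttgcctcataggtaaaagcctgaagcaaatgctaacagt
A TATAAA began 31 bases before the start of Il17a and 29 bases before that of Il17f, and Il23r held none, where 7.59% of 32851 annotated promoters of this length held it. An AGGTCA in either direction began 120 bases before the start in Il17a, 58 in Il17f, and 229 and 66 in Il23r, where 14.0% of promoters held 1 or more. In the other 4 members with a promoter in the table (Il17c, Il17rc, Il17re and Il12b) the letters AGGTCA were not in the window in either direction. The STAT element TTCNNNGAA (7.02% of promoters) and the AP-1 element TGACTCA (4.46%), both searched on both strands, matched 0 of the 7 windows. A match is a description of the letters and not evidence that a factor bound there in these skins.

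Of the receptor chains for IL-17, none passed the test. Il17ra, the chain common to the receptors of IL-17A, IL-17F and IL-17C, read 7.88 on KO_IMQ_Allo, 7.99 on KO_IMQ, 7.90 on KO_IMQ_B and 7.67 on WT_IMQ, against 7.72 on KO_Allo, 7.47 on KO_CTRL, 7.31 on KO_CTRL-B and 7.26 on WT_CTRL. Every pair was higher with IMQ, and the ranges overlapped only through KO_Allo, which lay above WT_IMQ. The mean difference was 0.42 ± 0.10 log2 units (adjusted p = 0.0880 in limma). Il17rc, which completes the receptor for IL-17A and IL-17F, read 9.16 on KO_IMQ_Allo, 9.08 on KO_IMQ, 9.20 on KO_IMQ_B and 9.02 on WT_IMQ, against 8.92 on KO_Allo, 8.55 on KO_CTRL, 8.61 on KO_CTRL-B and 8.44 on WT_CTRL. The groups did not overlap, and the pairs differed by 0.24 (KO Allo), 0.53 (KO plain), 0.59 (KO B) and 0.58 (WT plain) log2 units. Its mean, 0.48 ± 0.10, just missed the threshold (adjusted p = 0.0568 in limma), and it passed without the KO Allo pair (0.56, adjusted p = 0.0356), without dim genes (adjusted p = 0.0394) and with a trended robust prior (adjusted p = 0.0343). In the same order, these settings called 1307, 939 and 806 genes, against 685 in the main fit.

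Il17re, which completes the receptor for IL-17C, read 7.17 on KO_IMQ_Allo, 6.90 on KO_IMQ, 6.86 on KO_IMQ_B and 6.36 on WT_IMQ, against 6.98 on KO_Allo, 6.95 on KO_CTRL, 6.93 on KO_CTRL-B and 6.93 on WT_CTRL. The 4 arrays without IMQ lay within a narrow band (SD 0.02, n = 4), from which WT_IMQ was the farthest. The pairs differed by 0.19, -0.05, -0.07 and -0.56 log2 units in the KO Allo, KO plain, KO B and WT plain arms, and the mean was -0.12 ± 0.14 (adjusted p = 0.692 in limma). Il17re and Il17rc are neighbours on chromosome 6, with 0 protein-coding genes between them and no overlap in the annotation, and their levels over the 8 arrays had a Pearson r of -0.10. Among the other chains, Il17rd was lower with IMQ in 4 of 4 pairs, as 14.3% of genes were (-0.53 to -0.21 log2 units, mean -0.40 ± 0.10, adjusted p = 0.0866 in limma), and Il17rb, which serves IL-25, measured -0.22 ± 0.11. Of the 5 chains 0 passed in limma, with a median of -0.12.

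The starts of the 2 neighbouring receptor genes are shown in the same form, both on the plus strand of GRCm38.p6 (Il17re at chr6:113458521-113458770, Il17rc at chr6:113471205-113471454). Capitals mark GGGA followed by any 4 bases and CC, on either strand, a pattern looser than the kappa B element itself.
Il17re: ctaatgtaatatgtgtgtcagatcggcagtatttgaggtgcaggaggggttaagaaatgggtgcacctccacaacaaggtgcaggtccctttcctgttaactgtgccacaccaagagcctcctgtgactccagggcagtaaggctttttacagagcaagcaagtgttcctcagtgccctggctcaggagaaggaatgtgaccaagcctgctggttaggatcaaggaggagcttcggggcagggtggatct
Il17rc: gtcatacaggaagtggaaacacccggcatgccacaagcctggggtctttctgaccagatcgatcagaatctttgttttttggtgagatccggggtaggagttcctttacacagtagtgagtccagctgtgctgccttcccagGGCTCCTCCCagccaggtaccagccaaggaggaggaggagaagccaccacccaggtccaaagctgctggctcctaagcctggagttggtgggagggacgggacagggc
Il17rc held 1 match, which began 108 bases before the start, and Il17re held none, where 17.6% of promoters held 1 or more. The windows of Il17a, Il17f, Il17c, Il23r and Il12b held none either. Whether these letters bear on the levels was not tested. Neither the Il17re nor the Il17rc window held TATAAA or AGGTCA.

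**Figure D2:**
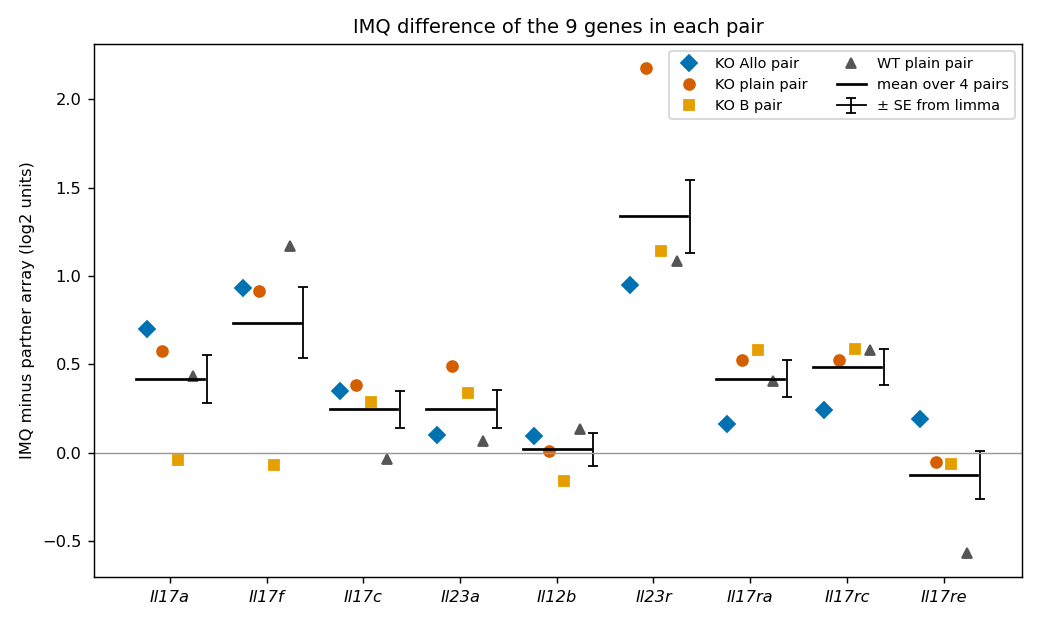
Difference between the IMQ array and its partner (log2 units, y axis) for each of the 9 genes (x axis), with 1 point per pair, the mean over the 4 pairs as a bar and its standard error from limma beside it. All 4 points of Il23r lie at 0.95 or above, the KO B points of Il17a and Il17f lie just below 0, and the WT plain point of Il17re lies at -0.56.

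The pairs differed in how many members were higher with IMQ and by how much. In the KO Allo pair 9 of 9 members were higher, in KO plain 8, in KO B 5 and in WT plain 7. Of all genes, 47.4% to 50.3% were. The median difference of the members was 0.24 (KO Allo), 0.52 (KO plain), 0.28 (KO B) and 0.40 (WT plain) log2 units. KO Allo, with the most members higher, thus had the smallest median. Differences of 1 log2 unit or more were counted without a test, since 1 array stands against 1. They were found for 0 members in KO Allo (1.71% of all genes), 1 in KO plain (Il23r, 4.91% of genes), 1 in KO B (Il23r, 3.12%) and 2 in WT plain (Il17f and Il23r, 4.62%). Every one was a rise.

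Over the 3 KO pairs alone, 0 members passed in limma and 0.0% of all genes did, while 5 of 9 members and 13.9% of all genes had an unadjusted p under 0.05. Il23r measured 1.42 ± 0.25 log2 units (adjusted p = 0.133), Il17f 0.59 ± 0.23 (adjusted p = 0.339) and Il17a 0.41 ± 0.17 (adjusted p = 0.381). The test of whether WT and KO skin differed in the response, coded as WT minus KO with a single WT pair, called 0 members and 0.0% of genes (limma, adjusted p 0.983 to 0.998). Only Il17re, like 4.12% of all genes, had an unadjusted p under 0.05 there: its response in the 3 KO pairs was -0.07 to 0.19 log2 units and in the WT pair -0.56, a difference of -0.59 ± 0.23 (95% interval -1.16 to -0.01, adjusted p = 0.983). The interval for Il23r, -1.60 to 0.93, and that for Il17f, -0.56 to 1.71, leave room for differences of more than 1 log2 unit either in 1 direction or in the other. A test of the KO Allo pair against the other 3 pairs called 0 members as well (adjusted p 0.774 to 0.957), with 0.00902% of all genes called. There the response of Il23r differed by -0.52 ± 0.46 log2 units and that of Il17a by 0.38 ± 0.30, and 0 members had an unadjusted p under 0.05, against 8.24% of all genes.

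Cells known to make IL-17 were followed through 10 measured markers of IL-17-producing gamma delta T cells; 5 of the 15 listed, T cell receptor constant genes among them, are not reported here. Il7r, the receptor for the survival cytokine IL-7, rose by 0.83 ± 0.10 log2 units (adjusted p = 0.0174 in limma), and the other 9 did not pass. Of all genes, 1.9% rose. The list median was 0.44, and the mean level of the list was 6.18 to 6.89 on the IMQ arrays, against 5.83 to 6.24 on those without. By pair, the list median was 0.37 (KO Allo), 0.72 (KO plain), 0.15 (KO B) and 0.40 (WT plain) log2 units. Cd163l1, a scavenger receptor of such cells, differed by 0.42, 1.48, -0.08 and 0.58 in the same order, and Blk, a kinase they express, by 0.32, 1.01, 0.03 and 0.40. In the KO B pair, where Il17a and Il17f were not higher, 6 of the 10 markers were higher, close to the share of all genes (48.0%). They were Ccr2 by 1.32, Il7r by 0.65, 5830411N06Rik, another scavenger receptor gene, by 0.60, Icos by 0.56, Ccr6 by 0.28 and Blk by 0.03. The other 4 lay below 0: Il18r1 at -0.04, Cd163l1 at -0.08, Sox13 at -0.09 and Zbtb16, a transcription factor of innate-like T cells, at -0.71. The part of cell number in the IL-17 differences was not tested.

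**Figure D3:**
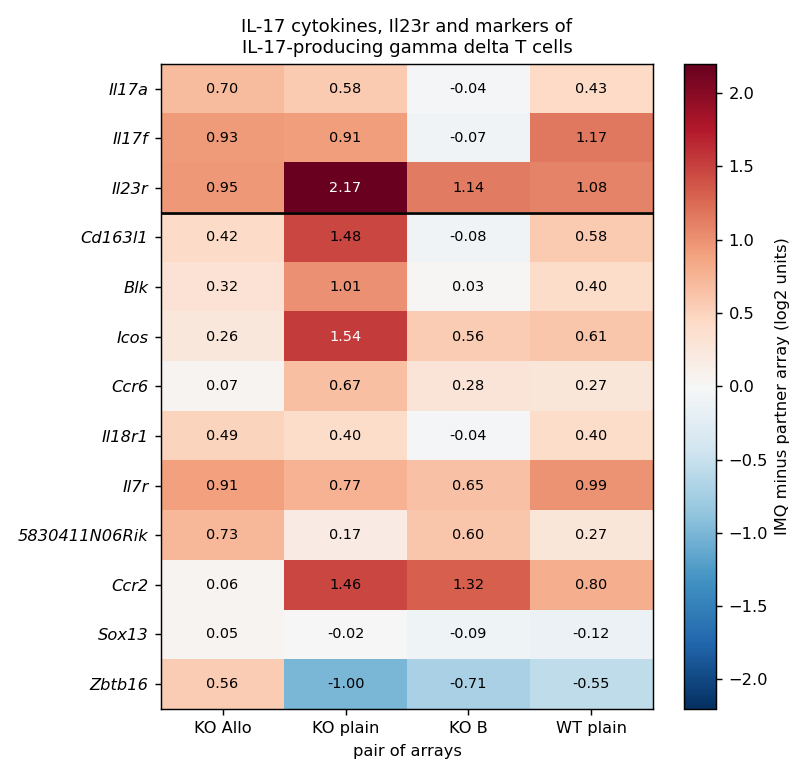
Difference between the IMQ array and its partner (log2 units, colour and printed value) in each pair (x axis) for Il17a, Il17f and Il23r (above the line) and 10 markers of IL-17-producing gamma delta T cells (below it). The KO B column is near 0 for Il17a, Il17f, Cd163l1, Blk and Il18r1, and the KO plain column holds the highest values of Il23r, Icos and Cd163l1.

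Other cell types that could carry these genes moved with IMQ to different degrees. The counts below stand against 1.9% of all genes that rose and 1.19% that fell. Among 12 pan-T cell genes 0 passed, with a list median of 0.20 log2 units; Cd4 measured 0.89 ± 0.18 (adjusted p = 0.0510) and Zap70 0.43 ± 0.11. Their mean level was 5.78 to 6.05 on the IMQ arrays, against 5.49 to 5.74 on the others. In the list of 7 group 3 innate lymphoid cell markers, Arg1, which macrophages also express, rose by 1.79 ± 0.34 and Id2 fell (-0.78 ± 0.10), with a median of 0.25; the receptor gene Ncr1 measured 0.25 ± 0.10. Of 9 markers of dendritic epidermal T cells 0 passed (median 0.02). Monocyte and macrophage genes, from cells that make IL-23, rose in 6 of 13, among them Itgam by 2.23 ± 0.34 and Csf1r by 0.95 ± 0.18 log2 units, with a median of 0.95 and mean levels of 8.08 to 8.81 with IMQ, against 7.31 to 7.94 without. Dendritic and Langerhans cell genes passed in 0 of 12 (median -0.03), with Sirpa at 0.71 ± 0.19 and Mgl2 at -0.93 ± 0.37. Neutrophil genes rose in 4 of 15 (median 1.13, with 13 above 0): Cxcr2, Fpr2, S100a8 and S100a9. S100a8 and S100a9 are also counted below as IL-17-induced genes. Ly6g, Camp, Mpo and Elane, other genes of the neutrophil list, measured 0.01, 0.04, 0.22 and -0.25. In the KO Allo pair the monocyte and neutrophil list medians were 0.15 and 0.17. In the other pairs they were 1.11 to 1.35 and 1.08 to 1.46. Over the 4 pairs, skeletal muscle genes fell in 3 of 15 (median -1.34) and hair follicle genes in 18 of 20 (median -2.48). With the muscle level as a covariate the members measured -0.037 (Il12b) to 0.63 (Il23r) log2 units, among them Il17f at 0.29, Il17a at 0.30, Il23a at 0.11 and Il17c at 0.33. With the hair follicle level they measured -0.20 (Il12b) to 2.72 (Il23r), among them Il17f at 0.16, Il17a at 0.58, Il23a at 0.84 and Il17c at 0.92. The adjusted p values of the members in these limma fits ran from 0.844 to 0.997. The part of the immune cell shifts was not tested.

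Downstream of the receptors, the genes that IL-17 is known to induce in keratinocytes held more calls than the cytokines. Of 21 measured, 9 rose and 0 fell, where 1.9% of all genes rose and 1.19% fell. The median was 0.67 log2 units, against -0.01 over all genes. Within the pairs, the list median was 0.07 (KO Allo), 1.31 (KO plain), 1.15 (KO B) and 0.82 (WT plain) log2 units. Those that rose were the alarmin genes S100a8 (5.34 ± 0.47) and S100a9 (4.70 ± 0.36), the beta-defensin genes Defb3 (3.53 ± 0.44), Defb14 and Defb4, Il1f9, which encodes IL-36 gamma (2.47 ± 0.21), the siderophore-binding protein gene Lcn2 (2.04 ± 0.22), and Zc3h12a and Nfkbiz. S100a8 and S100a9 are also abundant in neutrophils. Chemokine and growth factor genes of the list did not pass: Cxcl2 measured 1.13 ± 0.62, Cxcl1 0.26 ± 0.12, Ccl20 -0.01 ± 0.14, Csf2 -0.25 ± 0.13 and Csf3 -0.10 ± 0.11 log2 units. In the KO B pair, Lcn2 differed by 2.01 and Defb3 by 4.37 log2 units, beside -0.07 for Il17f and -0.04 for Il17a.

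Among 23 measured genes of IL-17 receptor signalling, 3 rose and 0 fell, where 1.9% of all genes rose and 1.19% fell, and the median was 0.05. Zc3h12a, an RNase that limits IL-17 signalling, rose by 1.45 ± 0.16 log2 units (adjusted p = 0.0157 in limma), and Nfkbiz and Cebpb, transcription regulators of IL-17 target genes, rose by 0.61 ± 0.10 and 0.56 ± 0.11. Zc3h12a read 9.09 on KO_IMQ_Allo, 8.99 on KO_IMQ, 8.53 on KO_IMQ_B and 8.11 on WT_IMQ, against 7.32 on KO_Allo, 7.14 on KO_CTRL, 7.49 on KO_CTRL-B and 6.98 on WT_CTRL, with no overlap. Its KO Allo and KO plain pairs (1.78 and 1.85) lay above its KO B and WT plain pairs (1.04 and 1.13). The adaptors Traf6, at 0.52 ± 0.12 (adjusted p = 0.0690), and Traf3ip2, which encodes Act1, at 0.10 ± 0.09, did not pass. Of 15 measured genes of IL-23 signalling and of the type 17 programme 0 passed (median 0.11): Socs3, a feedback inhibitor of STAT3, measured 0.56 ± 0.22, Stat3 0.47 ± 0.14 and Stat4 0.41 ± 0.20. For these 3 the KO Allo pair differed by -0.21, -0.01 and -0.38 log2 units, against 0.46 to 1.22, 0.56 to 0.74 and 0.51 to 0.84 in the other 3 pairs. Il22 read 1.49 to 2.31 on all 8 arrays, below the lower quartile of all genes (4.71), and measured 0.16 ± 0.10. Whether Il22 RNA was present above background is not known, so this value cannot show whether Il22 responded to IMQ.

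**Figure D4:**
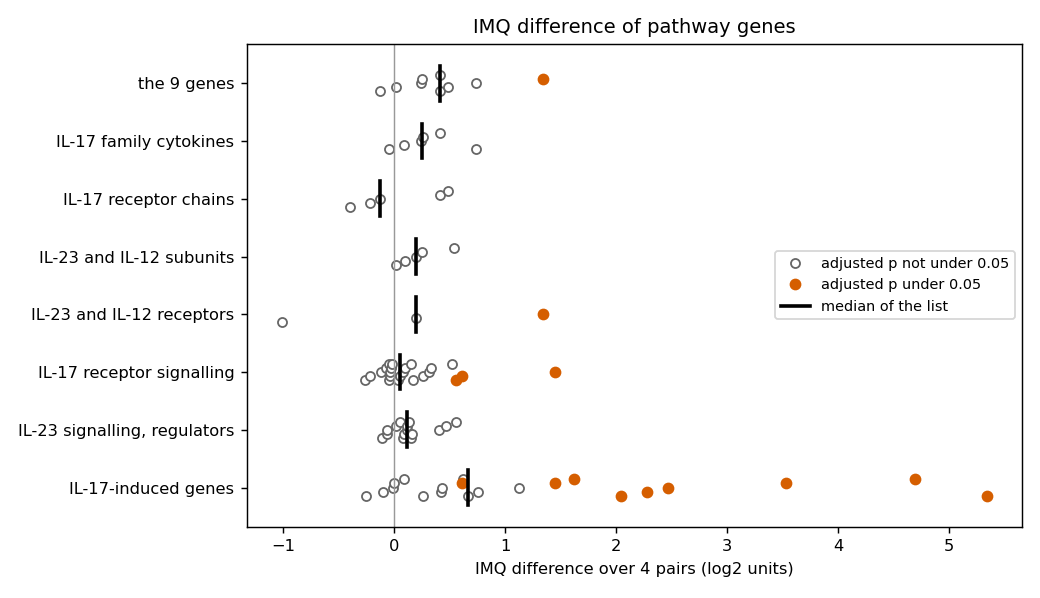
Difference with IMQ over the 4 pairs (log2 units, x axis) of the measured genes of each list (y axis), with 1 point per gene, filled where limma's adjusted p was under 0.05, and a bar at the list median. Il23r is the single filled point among the cytokine and receptor lists, and the IL-17-induced genes hold 9 filled points up to 5.34.

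Genotype and alloferon were compared in a fit with additive terms for genotype, IMQ and alloferon over the 8 arrays, in which the B arrays count as further KO arrays. KO minus WT lay above 0 for 9 of 9 members, where 53.0% of genes did. The median was 0.20 log2 units, against 0.01 over all genes. All 9 estimates rest on the same 2 WT arrays, so the members are not separate checks of the genotype. In limma 0 members and 0.0% of all genes passed (adjusted p = 0.999 for each member), and 0 members had an unadjusted p under 0.05, against 4.63% of genes. Il17a measured 0.33 ± 0.20 (95% interval -0.14 to 0.80), Il23r 0.30 ± 0.25 (-0.28 to 0.89) and Il17re 0.27 ± 0.16 (-0.10 to 0.63). Array against array, KO_IMQ minus WT_IMQ ran from 0.06 (Il17rc) to 0.96 log2 units (Il23r), whereas KO_IMQ_B minus WT_IMQ ran from -0.62 (Il17f) to 0.50 (Il17re). Without IMQ, KO_CTRL minus WT_CTRL was highest for Il17a (0.45) and lowest for Il23r (-0.13), and KO_CTRL-B minus WT_CTRL was highest for Il17f (0.62) and lowest for Il17c (-0.17). Differences of 1 log2 unit were reached by 0 members in each of these 4 comparisons, and by 1.29%, 1.22%, 1.34% and 1.14% of all genes in the order given. In the same order, 9, 7, 6 and 7 of 9 members lay above 0. The WT arrays serve in several of these comparisons, so the comparisons are not independent.

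Alloferon was labelled on KO arrays alone. In the additive fit its differences ran from -0.17 ± 0.20 log2 units for Il17a to 0.18 ± 0.12 for Il17rc, with a median of 0.05, against 0.00 over all genes. Of the members 0 passed in limma, and 0.0% of all genes did (adjusted p of the members up to 0.996), and 0 members had an unadjusted p under 0.05, against 5.0% of genes. The intervals were -0.56 to 0.60 for Il23r, -0.42 to 0.76 for Il17f and -0.64 to 0.30 for Il17a. Under IMQ, KO_IMQ_Allo against KO_IMQ gave 5.41 and 6.12 for Il23r, a difference of -0.70, but against KO_IMQ_B it gave 5.41 and 5.38. For Il17f the order was the other way: KO_IMQ_Allo and KO_IMQ read 6.56 and 6.52, and KO_IMQ_B read 5.75, a difference of 0.81 log2 units for alloferon. KO_IMQ_B minus KO_IMQ, whose labels differ in the letter B alone, was -0.78 for Il17f and -0.74 for Il23r. For Il17f KO_IMQ_Allo thus read close to KO_IMQ, and for Il23r close to KO_IMQ_B. Without IMQ, KO_Allo minus KO_CTRL was 0.52 for Il23r and -0.42 for Il17a, and KO_Allo minus KO_CTRL-B was 0.41 for Il17ra and -0.35 for Il17a. Differences of 1 log2 unit were reached by 0 members in these 4 alloferon comparisons, and by 1.48% (against KO_IMQ), 1.27% (KO_IMQ_B), 3.15% (KO_CTRL) and 1.24% (KO_CTRL-B) of all genes.

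**Figure D5:**
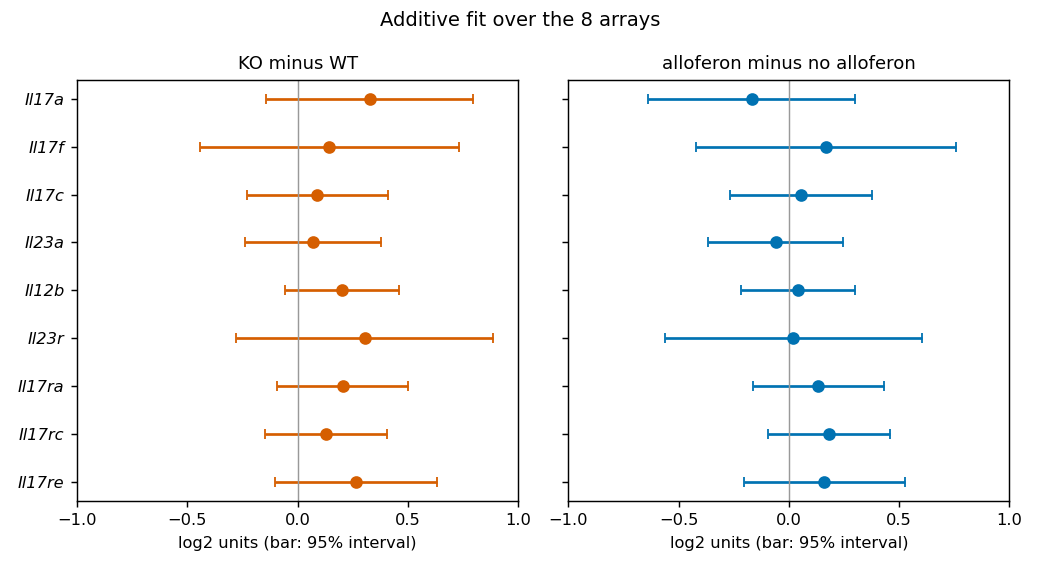
Differences of the 9 genes (y axis) in the additive fit, KO minus WT on the left and alloferon minus no alloferon on the right (log2 units, x axis), as points with 95% intervals from limma. Every interval includes 0, all 9 points lie above 0 on the left, and the widest intervals are those of Il17f, Il23r and Il17a. The points on the left all rest on the same 2 WT arrays.

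The genes whose levels over the 8 arrays were most like each member were named by Pearson r, as a description over arrays that share IMQ status and skin content. For Il23r they were Syt8, Ankk1 and Nkpd1 (r = 0.99 each). For Il17a they were Sowahc, Il18r1, which encodes a chain of the IL-18 receptor, and the chemokine gene Ccl22 (0.95 each), and for Il17f they were Rubcnl, Dapp1 and Slc11a2 (0.95, 0.94 and 0.93). Il17rc was nearest to Tlr9, the desmosomal cadherin gene Dsc1 and Ier3 (0.99 each), Il17ra to Igfl3, Aqp9 and Lrrc32 (0.99, 0.99 and 0.98), and Il17re to Mapk11, Cst6 and Npbwr1 (0.98, 0.94 and 0.94). The nearest for Il23a were Bcl2l15, Ltb4r1, a leukotriene B4 receptor gene, and Galnt3 (0.99, 0.99 and 0.98), for Il17c Dppa2, Macc1 and Oit1 (0.98, 0.97 and 0.95), and for Il12b Gpr158, F8a and Dppa5a (0.98, 0.97 and 0.96). Among the members themselves, the highest r was 0.94, between Il17ra and Il17rc, and Il23r reached 0.91 with Il23a and 0.81 with Il17f. With 8 arrays and, for Il23r, 4631 genes compared, these r values carry no test.

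Probe set brightness sets how far these values can be read. The mean level of the Il17a probe set lay at or above that of 16.9% of genes, Il23a of 22.3%, Il23r of 27.3%, Il12b of 32.2%, Il17c of 41.8%, Il17f of 47.5%, Il17re of 65.1%, Il17ra of 78.5% and Il17rc of 93.4%. RMA compresses differences of dim probe sets, and the deposited values hold no detection call. Whether Il17a, Il23a or Il23r RNA was present above background on a given array is therefore not known. Without IMQ, Il23r read 3.94 to 4.46, below the lower quartile of all genes (4.71). Brightness differs between probe sets for reasons of the probes and is no measure of which transcript was more abundant.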

How the data were processed

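Dorsal skin RNA of male mice was measured on 8 Affymetrix arrays, 1 per label. The authors deposited log2 values for 41345 probe sets per array, which per the labels are RMA values from Affymetrix Power Tools; the submitters' processing notes also name R 3.3.2 without a role. RMA corrects background, quantile-normalizes the arrays and combines the probes of each set, so a shift common to most genes cannot be seen. Array medians were 5.68 to 5.73. No sequencing depth applies; the number of arrays limits the precision. Each of the 8 columns carried 1 label, and 0 array pairs held identical values.

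Of the probe sets, 23521 had 1 gene symbol in the platform annotation, 1814 several and 16010 none. The probe set with the highest mean stood for a gene, which gave 22180 genes with no filter on low values. Tests used limma 3.58.1 in R 4.3.3 (lmFit, eBayes, Benjamini-Hochberg over all genes, call at an adjusted p under 0.05). The fit over 4 pairs took 1 intercept for each arm and 1 effect of IMQ (3 residual degrees of freedom); those for KO alone, WT minus KO and KO Allo minus the other pairs had 2, and the additive fit had 4. Of these fits, only the fit over 4 pairs was tried on simulated data. The spread is between arrays, which nothing shows to be separate animals, so p-values may measure technical spread.

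The members and gene lists were chosen with earlier results of these data known. The rule for named genes took all 9 members, of each further list the called genes (at most 6) or the 2 to 4 largest differences, and the 3 genes nearest to each member by Pearson r; the list genes beyond these were named after their values were seen. Alternatives were every probe set, the mean of probe sets, a filter on dim genes, a trended robust prior and centred arrays. Others were no arm levels, muscle or hair follicle covariates, and leaving out pairs or arrays. Each covariate was the median level of the listed genes on each array. Promoters came from RefSeq (GRCm38.p6), which held 7 of the 9 members; Il17ra and Il23a are named only.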

Additional observations from a re-analysis of the deposited data

Results flagged for a closer look

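Among 27 sets of 4 values (the pair differences, the IMQ arrays and the arrays without IMQ for each of 9 genes), 2 held a value far from the other 3; chance alone gives about 1 in 20. For Il23r, the KO plain pair differed by 2.17 log2 units where the other pairs differed by 0.95 to 1.14. KO_IMQ held the highest Il23r level of the 8 arrays and KO_CTRL the lowest, so both arrays contribute. KO_CTRL was also the array without IMQ that had the lowest mean hair follicle level (7.39) and the highest mean muscle level (11.17). Over the 4 pairs Il23r measured 0.63 log2 units with the median muscle level as a covariate and 2.72 with the median hair follicle level. For Il12b, WT_CTRL read 4.88 where KO_Allo, KO_CTRL and KO_CTRL-B read 5.14 to 5.19.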

How the results depend on the processing

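Of the alternatives for the 4 pairs, 2 raised the count of called members to 2 (Il23r and Il17rc): the filter on dim genes, which 5 of 9 members passed, and the trended robust prior. That filter kept genes whose highest array read above 6.05. Il23r passed it through KO_IMQ alone (6.12) and Il17f through IMQ arrays alone. The filter thus selects on the IMQ arrays, and the call of Il23r under it is no further support. The count of called members fell to 0 with every probe set tested and with either covariate, and was 0 to 2 when a pair was left out. The count over all genes, 685, was 0 with every probe set tested, 0 with either covariate, and 0 to 1307 when a pair was left out. Il23r was higher with IMQ in all 12 alternatives (0.63 to 2.72 log2 units) and called in 7 of them, the filter on dim genes included. Il17re turned positive without the WT plain pair (0.024; range over left-out pairs -0.23 to 0.024), with the muscle covariate (0.18) and with the hair follicle covariate (0.77). Il12b turned negative with the muscle (-0.037) and hair follicle covariates (-0.20), and ranged from -0.019 to 0.080 over left-out pairs. For KO alone, the count over all genes was 50 with a trended robust prior and 0 to 299 over left-out pairs; for KO Allo against the other pairs it was 33 with that prior and 0 with every probe set, against 2. The additive fits gave 0 to 1 gene for KO minus WT and 0 to 1 for alloferon over left-out arrays. In these 5 other comparisons 0 members were called under any alternative run. The fit over 4 pairs is paired by arm, and the labels carry no replicate numbers for a further block; without arm levels 747 genes and 1 member were called. The dimness of Il17a and Il23a limits what their small differences can show. That of Il23r on the arrays without IMQ limits how the size of its rise can be read.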
